A study of Mus musculus with 2 samples.

Results

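The 7 genes that encode the subunits of AMP-activated protein kinase (AMPK) were taken from the 22380 protein-coding genes of the mm9 GENCODE annotation, and the Mbnl2 tags on their strand were counted in WT and *Mbnl1* KO quadriceps. Mbnl2 is an RNA-binding protein of the muscleblind-like family, and HITS-CLIP maps the RNA that it touches in frozen tissue by UV crosslinking, RNase digestion, immunopurification and sequencing of the short RNA fragments, called tags. The WT group and the *Mbnl1* KO group, which is homozygous for a constitutive deletion allele named for exon 3 of *Mbnl1*, consist of 3 mice each, 15 to 16 weeks old. The labels give the strain of both as C57BL/6, while the methods name a mixed background for the compound crosses. The 3 mice of a genotype are merged in 1 table, so there was no spread between replicates, no test between genotypes was made, and each interval below covers counting error only, for these libraries and not for the genotypes.

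AMPK is a heterotrimer that senses the energy state of the cell. A catalytic alpha subunit (Prkaa1 or Prkaa2) is held by a scaffolding beta subunit (Prkab1 or Prkab2) and by a gamma subunit (Prkag1, Prkag2 or Prkag3) that binds AMP, ADP and ATP, and the kinase is switched on when the ratio of AMP to ATP rises and an upstream kinase phosphorylates the alpha subunit. In skeletal muscle it responds to contraction and promotes glucose uptake and fatty acid oxidation, and the products of Prkaa2, Prkab2 and Prkag3 are known as the subunits typical of muscle fibres. Muscleblind-like proteins bind short pyrimidine-GC-pyrimidine motifs in introns, where they influence splicing, and in 3′UTRs, where they influence the localization and stability of the mRNA.

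The tables held 343554 WT and 476543 *Mbnl1* KO tags, which rested on 5176203 and 50329234 reads. Tags whose reference sequence is at least 70% a single base, called single-base tags here, numbered 148588 of 337354 on the assembled chromosomes in WT and 80234 of 472915 in *Mbnl1* KO muscle, and this difference enters each ratio that is scaled to all tags of a table. Each of the 12 skeletal muscle markers carried tags, which summed to 1027 WT and 3611 *Mbnl1* KO tags (ratio 2.53). The fat markers (5 genes, of which 2 were at 0 in WT) summed to 6 and 45 tags (5.41) and the fibroblast markers (4 genes) to 186 and 774 (3.00). For endothelium (4 genes) the sums were 61 and 113 (1.34), for immune cells (4 genes, 2 at 0 in WT) 14 and 21 (1.08), and for neurons and Schwann cells (4 genes, 1 at 0 in WT) 32 and 51 (1.15). The part of other cell types in the results below was not tested, and fewer cells of a type and less RNA per cell cannot be told apart in whole muscle. Which annotated exon the targeted allele removes was not resolved here, so tags were counted at both candidates of the longest coding transcript of *Mbnl1*. Its exon 2, which holds the start codon, had 5 tags in WT and 2 in *Mbnl1* KO muscle (ratio 0.288, interval 0.0275 to 1.76). Its exon 3 had 0 tags in WT and 4 in *Mbnl1* KO muscle, which runs against the label if this is the deleted exon. The tags therefore do not check the genotypes, and each direction below rests on the labels of the libraries.

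Of the 7 subunit genes, Prkaa2, which encodes a catalytic subunit, carried the most Mbnl2 tags in *Mbnl1* KO muscle, and most of them lay in the 3′UTR. Prkaa2 (ENSMUSG00000028518.8, chr4:104702479-104782495, minus strand) carried 26 WT tags and 161 *Mbnl1* KO tags. Scaled to the tags of the table, these were 75.7 tags per 1000000 (95% exact Poisson interval 49.4 to 111) and 338 tags per 1000000 (288 to 394), and the *Mbnl1* KO/WT ratio was 4.46 (exact Clopper-Pearson interval 2.94 to 7.04). It was 2.69 (1.56 to 4.97) with tags of at least 2 reads and 9.67 (4.68 to 23.2) with tags of at least 30 nt. The gene ranked 530th by tags among all protein-coding genes in WT and 76th in *Mbnl1* KO muscle. It held 30.2% of the subunit tags in WT (interval 20.8 to 41.1) and 63.6% in *Mbnl1* KO muscle (57.4 to 69.6).

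**Figure D1:**
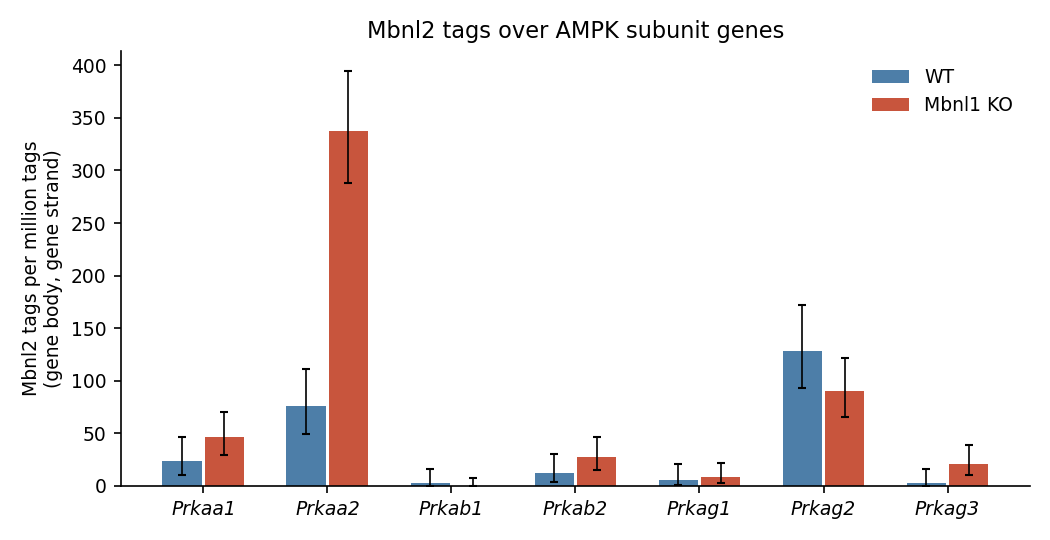
Mbnl2 tags per 1000000 over the body of each AMPK subunit gene, on its strand, in WT (blue) and *Mbnl1* KO (red) muscle. Bars are the values of the merged tables and lines are 95% exact Poisson intervals, which cover counting error only. Prkaa2 stands at 75.7 and 338, and no other subunit gene exceeds 90.2 in *Mbnl1* KO muscle.

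The annotated 3′UTR of Prkaa2 is 6218 nt long, and it held 19 of the 26 WT tags and 140 of the 161 *Mbnl1* KO tags. This is 55.3 (33.3 to 86.4) and 294 (247 to 347) tags per 1000000, a ratio of 5.31 (3.28 to 9.09). By 3′UTR tags the gene ranked 93rd in WT and 32nd in *Mbnl1* KO muscle. The coding exons carried 0 and 3 tags and the introns, 72048 nt in all, 7 and 18 tags. Each of the 159 3′UTR tags has a reference sequence that occurs at 1 place in the assembled mm9 chromosomes, and 0 of them were single-base tags. On the opposite strand of the whole gene there were 4 WT and 2 *Mbnl1* KO tags.

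The tags were spread unevenly along this 3′UTR. Runs of overlapping tags with at least 5 tags over both tables, called clusters here, numbered 10, and 4 of them adjoined each other between 3417 and 3701 nt after the stop codon (chr4:104704996-104705280). This stretch of 285 nt is 4.58% of the 3′UTR and held 8 of the 19 WT tags (42.1%) and 61 of the 140 *Mbnl1* KO tags (43.6%). Its ratio was 5.50 (2.62 to 13.3) and that of the remaining 3′UTR was 5.18 (2.74 to 10.8), so the WT and *Mbnl1* KO tags were shared between the stretch and the rest in nearly equal proportion, which is a description because the stretch was found from the same tags. Counted by tag midpoint, unlike the 140 tags above, which overlap the 3′UTR, the first 1000 nt had 17 tags (35.7 tags per 1000000) in *Mbnl1* KO muscle and none in WT, where the floor of 3 tags for a count of 0 is 8.73 tags per 1000000 and the upper exact Poisson bound 10.7. Whether the tables differ in the position of their tags was not tested.

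**Figure D2:**
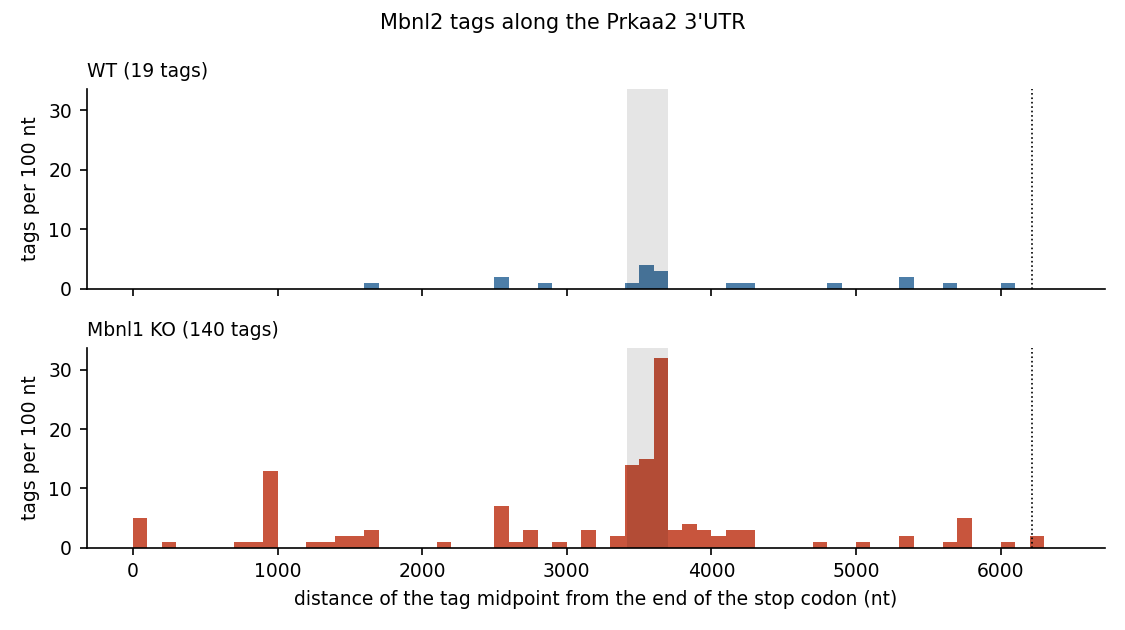
Number of tags per 100 nt along the Prkaa2 3′UTR in WT (top) and *Mbnl1* KO muscle (bottom), by the distance of the tag midpoint from the end of the stop codon. The grey band marks the stretch from 3417 to 3701 nt, the dotted line the annotated end at 6218 nt, and midpoints before the end of the stop codon are drawn at 0. The band holds 8 of 19 WT tags and 61 of 140 *Mbnl1* KO tags.

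The sequences under the 6 Prkaa2 3′UTR clusters with at least 8 tags show what Mbnl2 touched in this transcript. Each line gives 30 bases of mm9 around the point of highest coverage, 5′ to 3′ on the minus strand, with T for U, and capitals mark the motif of muscleblind-like proteins, which is TGCT or TGCC, or either of them with C as its first base, on the strand of the transcript, with overlapping matches counted.
Prkaa2 cluster of 32 tags, chr4:104705006-104705035: tggcttagtagttcttggcaactctgttga
Prkaa2 cluster of 15 tags, chr4:104705235-104705264: gtctcTGCTaacatgcaagcaTGCTtagtt
Prkaa2 cluster of 12 tags, chr4:104705079-104705108: cttgtcTGCTttgtgtttggttcagtctgg
Prkaa2 cluster of 10 tags, chr4:104705150-104705179: acagataccacagctcTGCCtggtcactcc
Prkaa2 cluster of 8 tags, chr4:104706118-104706147: ttttaaaacgttTGCTgagtctggtTGCTt
Prkaa2 cluster of 8 tags, chr4:104707760-104707789: aaaacctTGCTttggccatcatgtctttgt
The motif stood in 5 of these 6 windows and in 6 of the windows of all 10 clusters. Of 887534 windows of 30 bases that tile the annotated 3′UTRs of the genome, 28.2% held it, as did 79.8% of the windows at the top of the 346 3′UTR clusters with at least 20 tags that are not mostly single-base tags. These sets are unlike, since the limit at Prkaa2 was 8 or 5 tags. The 1 cluster of Prkaa2 that reaches 20 tags had no motif in its window or in the rest of its 68 nt. The 3′UTR of Prkaa2 as a whole has 9.65 such motifs per kb, against 12.6 over all annotated 3′UTRs.

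The clusters were chosen by their tags over both tables, so those with few WT tags passed the limit through *Mbnl1* KO muscle, and their counts and ratios are a description that supports no difference. The cluster with the most tags lies from 3634 to 3701 nt after the stop codon and held 3 WT and 29 *Mbnl1* KO tags at 20 distinct positions, with a ratio of 6.97. The cluster of 15 tags, which has 2 motifs, held 1 and 14 tags. The cluster of 8 tags nearest to the stop codon, from 903 to 938 nt, had 0 WT and 8 *Mbnl1* KO tags. The remaining clusters in the list above had 2 and 10, 2 and 8, and 2 and 6 tags, each count given as WT and then *Mbnl1* KO.

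Prkaa1, which encodes the other catalytic subunit, had few tags and no cluster in its 3′UTR. The gene (ENSMUSG00000050697.8, chr15:5093861-5131899, plus strand) carried 8 WT and 22 *Mbnl1* KO tags, with a ratio of 1.98 and an interval from 0.850 to 5.15 that includes 1. Of these tags, 4 and 8 lay in the 3′UTR of 2967 nt and 4 and 14 in introns. Without scaling the interval was above 1 (2.75, 1.18 to 7.14), and with tags of at least 2 reads, which leave 6 and 10, the ratio was below 1 (0.622, 0.205 to 2.08). Per kb of 3′UTR, the raw tags of Prkaa1 were 1.35 (0.367 to 3.45) in WT and 2.70 (1.16 to 5.31) in *Mbnl1* KO muscle, and those of Prkaa2 were 3.06 (1.84 to 4.77) and 22.5 (18.9 to 26.6). The density at Prkaa2 was thus above that at Prkaa1 beyond counting error in *Mbnl1* KO muscle, while the WT intervals overlapped. In its introns Prkaa1 had 2 clusters. The cluster of 5 tags that was not made of single-base tags lies at chr15:5120448-5120468, with 1 WT and 4 *Mbnl1* KO tags at the same position.

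The genes of the scaffolding subunits differed in their tags. Prkab2 (ENSMUSG00000038205.6, chr3:97462116-97477735, plus strand) had 4 WT and 13 *Mbnl1* KO tags, of which 2 and 11 lay in its 3′UTR of 4007 nt. The ratio was 2.34 (0.724 to 9.86) over the gene and 3.97 (0.865 to 36.8) in the 3′UTR, where *Mbnl1* KO muscle had 2.75 raw tags per kb (1.37 to 4.91). This density was close to that of Prkaa1 and below that of Prkaa2. Prkab1 (ENSMUSG00000029513.7, chr5:116463595-116474517, minus strand) had 1 tag in WT, in an intron, and none in *Mbnl1* KO muscle, where the floor of 3 tags for a count of 0 is 6.30 tags per 1000000 and the upper exact Poisson bound 7.74.

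Among the nucleotide-binding gamma subunits, Prkag2 had the most tags of the 7 genes in WT muscle, all of them intronic. Prkag2 (ENSMUSG00000028944.8, chr5:24368562-24606460, minus strand) spans 237899 nt and carried 44 tags in WT and 43 in *Mbnl1* KO muscle, and the interval of its ratio (0.705, 0.452 to 1.10) included 1. Of these, 30 in WT (68.2%) and 26 in *Mbnl1* KO muscle (60.5%) were single-base tags, and 53 of the 87 tags had a reference sequence that occurs at more than 1 place in mm9. All 4 clusters of the gene consisted of single-base tags. At chr5:24409760-24409806 a cluster had 8 WT tags and 1 *Mbnl1* KO tag, with a ratio of 0.0901 (0.00203 to 0.672), and it was the single cluster of the 7 genes with an interval below 1, a description too, since it passed the limit through WT muscle. The largest, with 12 WT and 14 *Mbnl1* KO tags, is shown for contrast with the Prkaa2 sequences, from the minus strand.
Prkag2 intron cluster of 26 tags, chr5:24409141-24409170: aaaaaaaaaaaaaaaaaaaaaaaaggggga
With single-base tags set aside, 14 WT and 17 *Mbnl1* KO tags remained in the Prkag2 introns, and on the opposite strand of the gene 6 and 10. Prkaa2 then had more WT tags than Prkag2, with 22. The exons of Prkag2 had 0 tags in both tables.

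Prkag3, whose product is the gamma subunit typical of fast muscle fibres, had 1 WT and 10 *Mbnl1* KO tags. The gene (ENSMUSG00000006542.7, chr1:74786073-74795795, minus strand) had a ratio of 7.21, and its interval of 1.03 to 313 rests on that 1 WT tag. It included 1 with single-base tags dropped (4.92, upper bound 214), with at least 2 reads (0.336 to 118) and with 1 tag per 5′ end (0.577 to 219). The *Mbnl1* KO tags comprised 7 in introns, 2 in an exon annotated only in a transcript without a coding sequence and 1 in a coding exon, and 0 lay in the 3′UTR of 500 nt. They started at 6 distinct 5′ ends. Of the 11 Prkag3 tags of both tables, 3 had a reference sequence that occurs at 2 places in mm9, and 0 of these 3 were single-base tags. Prkag1 (ENSMUSG00000067713.5, chr15:98643229-98661939, minus strand) had 2 WT and 4 *Mbnl1* KO tags, all in introns, with a ratio of 1.44 (0.207 to 15.9).

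**Figure D3:**
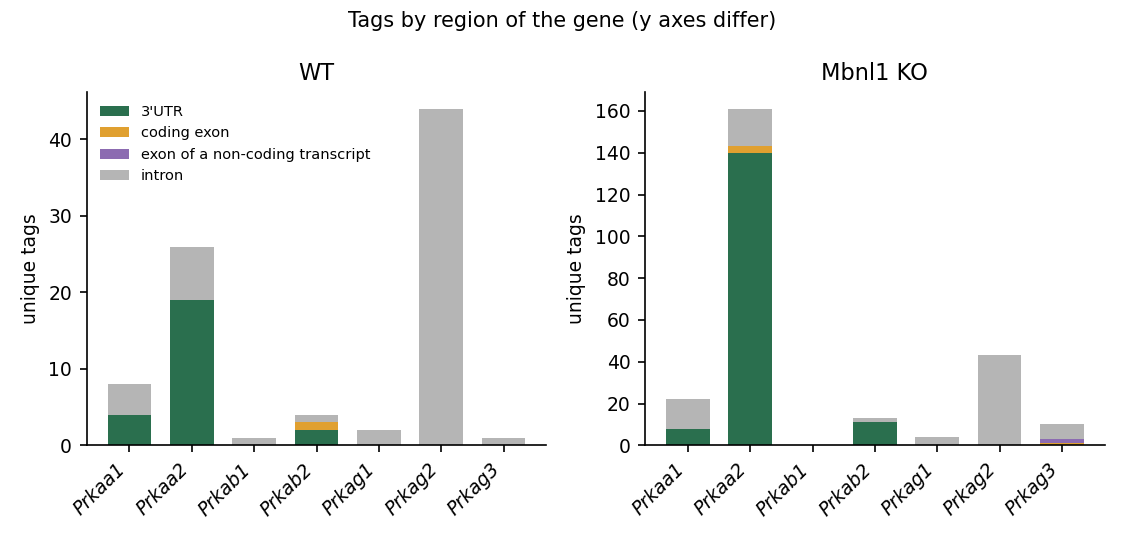
Unique tags over each AMPK subunit gene split by region, in WT (left) and *Mbnl1* KO muscle (right), on separate axes. The 3′UTR (green) holds 140 of the 161 Prkaa2 tags of *Mbnl1* KO muscle, while all 44 and 43 Prkag2 tags are intronic (grey).

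Over the 7 genes together, 86 tags in WT stood against 253 in *Mbnl1* KO muscle (ratio 2.12, interval 1.65 to 2.74). The 3′UTRs carried 25 and 159 of them, a ratio of 4.59 (3.00 to 7.30), and the introns 60 and 88, a ratio of 1.06 (0.753 to 1.49). Tags in a 3′UTR were found at 3 of the 7 genes, and the 3′UTRs of Prkab1, Prkag1, Prkag2 and Prkag3, 3250 nt in all, had 0 tags in both tables. Without Prkaa2, the sums were 60 and 92 tags over the gene bodies (1.11, interval 0.790 to 1.56) and 6 and 19 in the 3′UTRs (2.28, interval 0.877 to 6.98), a comparison chosen after the data were seen. Without Prkag2, a choice made in the same way, the introns had 16 and 45 tags (2.03, interval 1.12 to 3.84). On the opposite strand of the 7 genes there were 22 WT and 22 *Mbnl1* KO tags, of which 11 and 3 were single-base tags.

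These ratios were read against those of all protein-coding genes. Of the 3888 genes with at least 20 tags over both tables, 41.6% had a ratio of at least 2, 38.6% an interval above 1, 3.76% a ratio of at most 0.5 and 3.83% an interval below 1, and the median ratio was 1.75. Of the 7 subunit genes, 3 had a ratio of at least 2 (Prkaa2, Prkab2 and Prkag3) and 2 an interval above 1 (Prkaa2 and Prkag3), and no subunit gene had an interval below 1. However, 4 of the 7 genes had fewer than 20 tags, among them Prkab2 and Prkag3. Prkaa1, Prkaa2 and Prkag2 reached that number. Of 16034 genes with at least 1 tag, which include all 7, 43.3% had a ratio of at least 2 and 12.4% an interval above 1.

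Ratios in 3′UTRs were higher throughout the genome. Of the 866 genes with at least 20 tags in the 3′UTR, 86.7% had a ratio of at least 2, 77.8% an interval above 1 and 0.115% a ratio of at most 0.5, with a median of 3.24 and quartiles of 2.45 and 4.51. Prkaa2, the subunit gene that reached this number, ranked 144th of these 866 with its ratio of 5.31, a description only, since 140 of the 159 tags that carried it past this limit are from *Mbnl1* KO muscle. When single-base tags were dropped, the Prkaa2 ratio was 3.63 (2.24 to 6.20), and 60.2% of 861 genes had a 3′UTR ratio of at least 2, with a median of 2.25. In introns, 2477 genes had at least 20 tags, 22.0% of them had a ratio of at least 2, 6.26% a ratio of at most 0.5, 19.7% an interval above 1 and 6.62% an interval below 1, and their median was 1.30. The share of tags in 3′UTRs over all protein-coding genes was 16.4% in WT and 29.8% in *Mbnl1* KO muscle, against 29.1% (19.8 to 39.9) and 62.8% (56.6 to 68.8) over the 7 subunit genes, and 6 of 60 tags and 19 of 92 tags without Prkaa2. RNA levels were not analysed here, so more tags per transcript and more transcript cannot be told apart.

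**Figure D4:**
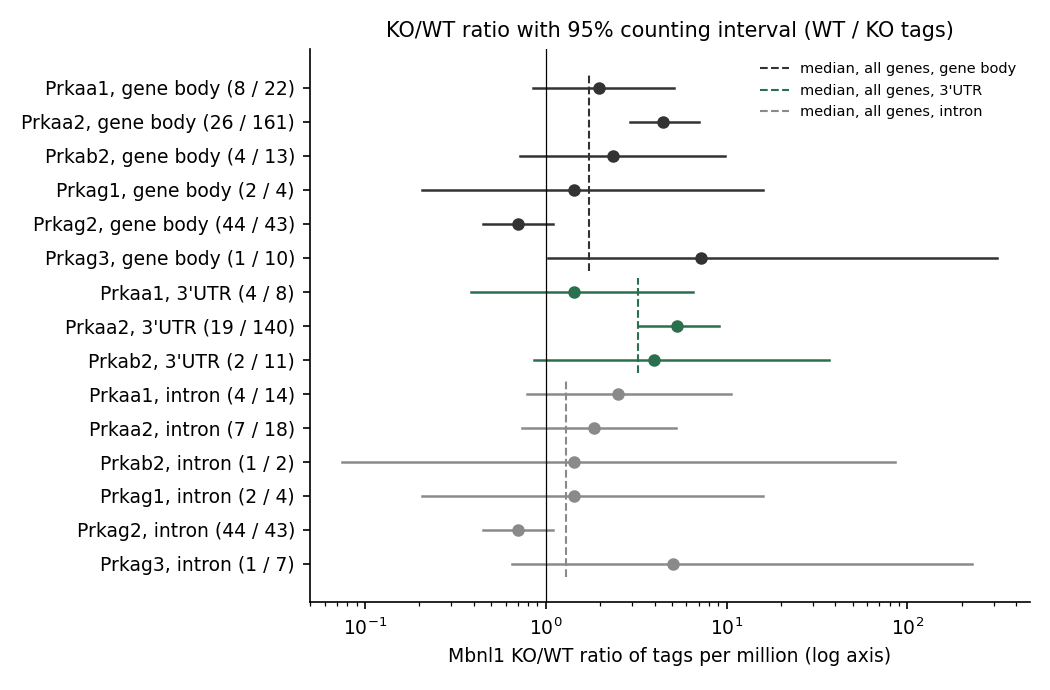
*Mbnl1* KO/WT ratio of tags per 1000000 (log axis) for each subunit gene and region with a tag in both tables, with the WT and *Mbnl1* KO tags in brackets. Points are ratios, lines 95% Clopper-Pearson intervals and dashed lines the medians over all genes with at least 20 tags in the same region (1.75, 3.24 and 1.30). The Prkaa2 3′UTR stands at 5.31, with an interval from 3.28 that begins next to the median for 3′UTRs.

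The genes most like Prkaa2 in the amount and place of their tags were sought by the Euclidean distance of log2(tags per 1000000 + 1) over 6 values, namely 3′UTR, coding exon and intron in each table. The nearest 3 were Rmnd5a (distance 0.590), Alpk3 (0.992) and Ube2b (1.00). Rmnd5a and Ube2b encode proteins of the ubiquitin system and Alpk3 a kinase of striated muscle. Their 3′UTRs had 21 WT and 103 *Mbnl1* KO tags at Rmnd5a, 26 and 114 at Alpk3 and 18 and 80 at Ube2b. The ratios that follow, 3.54, 3.16 and 3.20, are made of the values that chose these genes and are given as a description.

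The other genes of the AMPK pathway were counted in 4 lists, and 44 of their 46 genes matched a single annotated gene. Of these, 22 had at least 20 tags, 11 had a ratio of at least 2, 13 an interval above 1 and 0 a ratio of at most 0.5, with a median of 1.97. Over all genes with that many tags the shares were 41.6%, 38.6% and 3.76% and the median 1.75. The lists differ in these counts, but no difference between a list and all genes, or between lists, was tested. The limit is on the tags of both tables together, for the lists and for all genes. Genes with few WT tags passed it through *Mbnl1* KO muscle, so the counts and ratios here and in the lists below are a description. In the 3′UTR, none of the 44 had more *Mbnl1* KO tags than Prkaa2, and the highest number was 56. These are raw counts that were not divided by the length of each 3′UTR, so they do not compare densities.

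Upstream of AMPK stand the kinase Stk11, also known as LKB1, with its partners of the Strad and Cab39 families, and the calcium-dependent kinases Camkk1 and Camkk2. Of the 4 genes of this list with at least 20 tags, 2 had a ratio of at least 2, beside 41.6% of all genes. Cab39, a scaffold of the Stk11 complex, had 4 WT and 44 *Mbnl1* KO tags (7.93, interval 2.89 to 30.4), with 2 and 29 of them in the 3′UTR. It passed the limit of 20 tags through *Mbnl1* KO muscle, so its ratio is a description. Strada, a pseudokinase that activates Stk11, had 18 and 67 tags (2.68, interval 1.58 to 4.80), of which 17 and 64 were intronic. Stradb had 11 and 15 tags and a ratio of 0.983 (0.422 to 2.37).

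Among the regulators and binding partners, Fnip1, which forms a complex with folliculin and AMPK, had the most tags. It carried 30 WT and 116 *Mbnl1* KO tags (2.79, interval 1.85 to 4.32), with 11 and 56 in the 3′UTR (3.67, interval 1.90 to 7.77) and 18 and 56 in introns. It was the single gene of that list with at least 20 tags. Its paralogue Fnip2 had 7 and 11 tags and the stress-induced Sesn1 had 6 and 10, and both intervals included 1.

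Of the 18 matched substrates and downstream effectors, 12 had at least 20 tags. Of these, 8 had a ratio of at least 2, and the median was 2.35, beside 41.6% and 1.75 over all genes. Those with few WT tags passed the limit through *Mbnl1* KO muscle, so this count is a description and no excess was tested. Tbc1d1, a Rab GTPase-activating protein that governs glucose transporter traffic in muscle, had 18 WT and 62 *Mbnl1* KO tags (2.48, interval 1.45 to 4.46), nearly all intronic. The transcription factor Foxo3 had 14 and 43 tags (2.21, interval 1.19 to 4.38), of which 4 and 22 lay in the 3′UTR. Acaca, an acetyl-CoA carboxylase that AMPK inhibits, had 29 and 53 tags (1.32, interval 0.823 to 2.15).

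The AMPK-related kinases are also activated by Stk11. Of the 12 genes, 5 had at least 20 tags, and of these 0 had a ratio of at least 2 and 2 an interval above 1, with a median of 1.44, beside 41.6%, 38.6% and 1.75 over all genes. Sik3 had 23 WT and 57 *Mbnl1* KO tags (1.79, interval 1.08 to 3.04) and Snrk 21 and 50 (1.72, interval 1.01 to 3.01). Mark2 had 16 and 24 tags (1.08, interval 0.551 to 2.18). Most tags of these kinases were intronic, with 44 of 57 at Sik3 and 41 of 50 at Snrk in *Mbnl1* KO muscle.

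**Figure D5:**
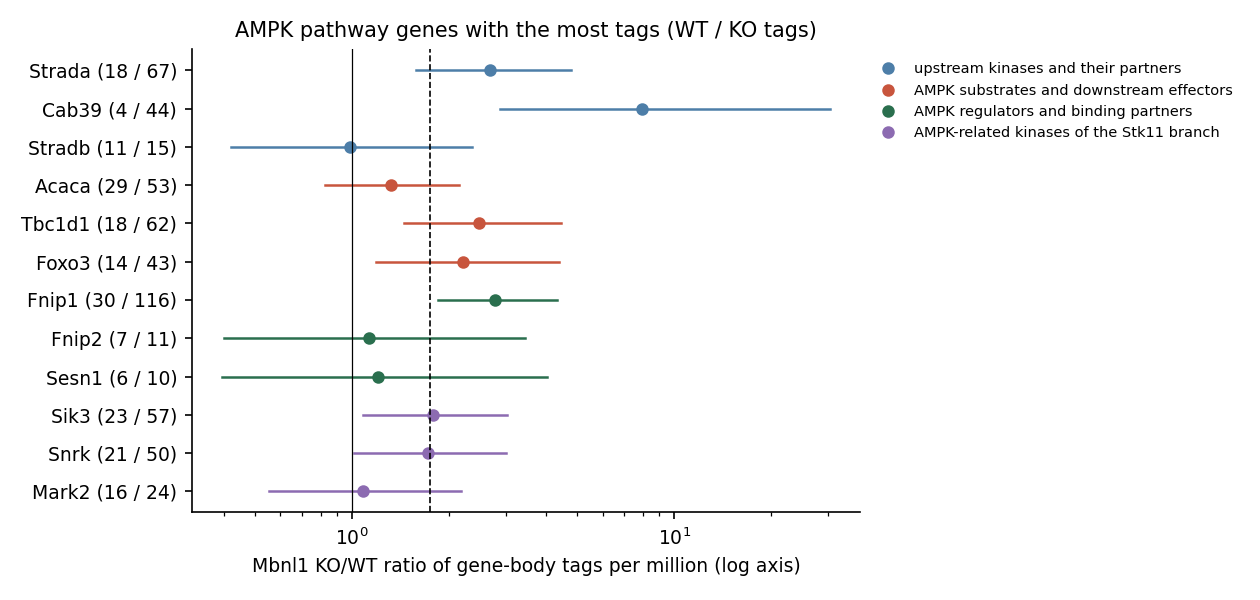
*Mbnl1* KO/WT ratio of gene-body tags per 1000000 (log axis) for the 3 genes with the most tags in each AMPK pathway list, with WT and *Mbnl1* KO tags in brackets. Points are ratios, lines 95% Clopper-Pearson intervals, the solid line is at 1 and the dashed line at 1.75, the median of all genes with at least 20 tags. Cab39 is the highest at 7.93 and Stradb, at 0.983, the lowest. The genes were chosen by their tags over both tables, so the ratios are a description.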

How the data were processed

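Tables of unique Mbnl2 HITS-CLIP tags, each pooled by the authors over the 3 quadriceps of a genotype, were the input. Reads had been quality filtered, aligned to mm9 with BWA (version not given in the sources used here) and collapsed to remove likely PCR duplicates. In the deposited tables every tag has a count of its reads, not normalized. The methods name RNase A at 38.6 U/ml (high) and 0.0386 U/ml (low), and which of these the sequenced libraries had is not given in the sources used here.

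Tags overlapping a gene on its strand were counted with scipy 1.17.1, pandas 2.3.3 and numpy 2.4.6 under Python 3.11.15 and divided by the tags of the table. Each tag was assigned to the 3′UTR, then coding exon, 5′UTR, other exon or intron of any annotated transcript. No tag of the 7 genes overlapped another protein-coding gene on its strand. Chromosome lengths of the reference match the mm9 coordinates of the tags. Sequences were read from it with pyfaidx 0.9.0.4 after indexing with samtools 1.23.1. Ratios have exact Clopper-Pearson intervals at 95% and levels exact Poisson intervals. No p-value was computed. Floors for 0 tags are 3 tags. The ratio and its interval were tested on simulated independent Poisson counts for genes with at least 20 tags. This is the assumption of the interval itself, so the test does not cover genes with fewer tags or tags that share a position.

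The members, gene lists and tests were chosen with earlier results of these data known. The genes named are the 7 members, the 3 genes with the most tags in each pathway list and the 3 genes nearest to the member with the most tags. Hdac4 and Tfeb did not match a single annotated gene and were not analysed here. The alternatives were no scaling, scaling outside chromosome M, leaving out single-base tags, at least 2 reads, both together, at least 30 nt, collapsing the same 5′ end, counting midpoints, the longest coding transcript, reads in place of tags, a 1.5-fold limit and 10 kb added downstream.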

Additional observations from a re-analysis of the deposited data

Results flagged for a closer look

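Tags downstream of the annotated end of Prkaa2 lie outside the regions compared above, and they were higher in *Mbnl1* KO than in WT muscle. Within 10 kb after the gene, on its strand, 2 tags in WT stood against 15 in *Mbnl1* KO muscle (ratio 5.41, interval 1.26 to 48.7), and 0 of them were single-base tags. The *Mbnl1* KO tags fell in small groups between 6993 and 7475 nt (7 tags) and between 9053 and 9409 nt (7 tags) after the annotated end, besides 1 tag at 2723 nt. The annotation lists no other gene on either strand in this window. Over the 10 kb after the other 6 genes together, there were 8 WT and 11 *Mbnl1* KO tags. The windows after Prkaa1 and Prkag1 overlap another protein-coding gene on the same strand, unlike that of Prkaa2. Downstream windows of genes outside the 7 were not counted, so no share over all genes stands beside these values.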

How the results depend on the processing

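The ratio of the Prkaa2 3′UTR stayed above 1 under each of the 10 alternatives, from 2.39 to 23.2, with the interval above 1 in the 9 that have an interval. Over the 7 genes, the ratio was 2.94 without scaling, 1.65 with at least 2 reads, 1.64 when single-base tags were dropped too, 3.08 with tags of at least 30 nt, 2.87 with reads in place of tags and 1.11 without Prkaa2. In the 3′UTRs it was 2.26 with at least 2 reads, 1.90 when single-base tags were dropped too, 19.6 with tags of at least 30 nt, which leave 4 WT tags, and 2.28 without Prkaa2. In the introns it was 1.65 with reads in place of tags and 2.03 without Prkag2, where the interval (1.12 to 3.84) was above 1. It fell below 1 with at least 2 reads (0.821) and with single-base tags dropped too (0.901), with intervals that included 1. Omitting Prkaa2 or Prkag2 was a choice made after seeing the data. The number of genes at or above 2-fold was 5 without scaling, 2 with single-base tags left out and between 2 and 5 in all. Leaving out single-base tags lowers the factor that multiplies raw ratios from 0.721 to 0.492 and gave 3.63 (2.24 to 6.20) at the Prkaa2 3′UTR, beside a median of 2.25 over 861 3′UTRs. With at least 2 reads the factor was 0.373, and with single-base tags dropped too it was 0.313. Both settings left 13 WT and 99 *Mbnl1* KO tags at the Prkaa2 3′UTR, a raw proportion near that of the 19 and 140 tags in the main count. The lower ratios there, 2.84 and 2.39, thus came with the lower factor. What else moved the ratios was not tested. The Prkaa2 gene body ranged from 2.22 (at least 2 reads, single-base tags dropped) to 9.67 (at least 30 nt), with each of the 8 intervals above 1. Without scaling, the intervals of Prkaa1 (1.18 to 7.14), Prkab2 (1.004 to 13.7) and the summed introns (1.04 to 2.07) were above 1, unlike with scaling to all tags. Prkaa1 ranged from 0.522 to 2.75, Prkab2 from 0.481 (reads) to 3.25 and Prkag2 from 0.581 to 1.24, on both sides of 1. Under some alternatives Prkab1, Prkag1 or Prkag3 gave no ratio for want of tags. No paired analysis was possible because the mice of a genotype share 1 pooled table, which also meant that none could be omitted in turn. Outside Prkaa2 and Prkag2, 8 or fewer WT tags limit each ratio.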
